A study of Mus musculus with 10 samples.

Results

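Deptor, the gene of an inhibitory subunit of the mTOR kinase complexes, was examined together with 9 genes of the same machinery: Mtor, Rptor, Rictor, Mlst8, Akt1s1, Tsc1, Tsc2, Rheb and Ddit4. The 10 genes were listed by symbol, and all 10 were found among the 36528 gene identifiers of the files and among the 13588 genes that passed the filter on low counts. Deptor was chosen by its measured fold change and test between the groups compared here: its transcript had already been seen to be lower after anti-MerTK. The other 9 were added for their function with the same results known. The differences between the groups are therefore descriptions of these libraries, and the p-values given with them are not independent evidence. The libraries came from tumour-associated macrophages purified from MC-38 tumours, which grow from a mouse colon carcinoma line, in C57Bl/6 mice. One group of 5 libraries followed anti-MerTK, an antibody against a receptor tyrosine kinase through which macrophages take up apoptotic cells. The comparison group of 5 followed anti-gp120, an antibody against an envelope protein of HIV. RNA was taken 24 h after treatment, and both groups shared strain, tumour line and purification. The sources used here do not give the age of the mice, the antibody doses or whether each library came from a separate mouse, so the spread between libraries may be technical.

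The mTOR kinase joins growth factor, energy and amino acid signals to protein synthesis, lipid synthesis and autophagy. It works in a pair of complexes that share the kinase and the subunit Mlst8: mTOR complex 1 contains Raptor (gene Rptor) and mTOR complex 2 contains Rictor. Deptor binds the kinase in both complexes and restrains it, and PRAS40 (gene Akt1s1) restrains complex 1. Rheb is the small GTPase that switches complex 1 on at the lysosome, the Tsc1 and Tsc2 proteins switch Rheb off, and Redd1 (gene Ddit4) acts through Tsc2 when cells meet hypoxia, glucocorticoids or other stress. In macrophages this pathway is known to bear on metabolism, cytokine production and the handling of engulfed material. Most of its control acts on proteins, through phosphorylation, location and degradation, and transcript levels do not measure kinase activity.

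The libraries held 33159858 to 46108687 counted reads. Summed over 10 macrophage markers, all of them tested and 1 of them, Fcgr1, higher, levels were 28860 to 38783 CPM (each gene's reads as a share of its library, scaled with TMM factors) after anti-gp120 and 31114 to 37145 CPM after anti-MerTK. The complement gene C1qa alone gave 6134 to 8254 and 6943 to 7620 CPM. Mertk itself was at 91.1 ± 14.3 CPM in the anti-gp120 group and 78.9 ± 4.96 CPM in the anti-MerTK group (SD, n = 5), with a log2 fold change of -0.21 (edgeR adjusted p = 0.263). On the first principal component of all tested genes, which held 29.8% of the variance, anti-MerTK replicate 2 lay farthest out, at 46.6, and anti-gp120 replicate 2 at the other end, at -28.3. Among all tested genes 3.22% passed edgeR's quasi-likelihood test at an adjusted p under 0.05, with 1.85% higher and 1.38% lower after anti-MerTK. The CPM ranges of the groups did not overlap for 5.97% of tested genes, and for 2.71% the anti-MerTK range lay below and for 3.26% above.

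Per transcript length, Rheb was the most abundant of the 10 transcripts, and Deptor, Rictor and Tsc1 were the least abundant, in an order that differed between the groups. Levels between genes were compared as the deposited RPKM, which divides reads by the length of the gene model and the size of the library. Over all 10 libraries Rheb was at 61.4 ± 5.27 RPKM and Ddit4 at 20.9 ± 6.15 RPKM (SD, n = 10), and neither range met that of any other gene. Rptor at 6.90 ± 0.73, Tsc2 at 6.37 ± 0.47 and Akt1s1 at 6.08 ± 0.43 RPKM had overlapping ranges. Mlst8 followed at 4.52 ± 0.62 RPKM, its range overlapping that of Akt1s1. Mtor, the catalytic subunit itself, stood apart from both neighbours at 2.65 ± 0.32 RPKM. Tsc1 at 1.44 ± 0.22, Rictor at 1.23 ± 0.17 and Deptor at 1.17 ± 0.47 RPKM had ranges that overlapped over the 10 libraries. After anti-gp120 the RPKM of Deptor (1.55 ± 0.32) was above that of Rictor (1.26 ± 0.18) in 5 of 5 libraries and above that of Tsc1 (1.505 ± 0.27) in 3 of 5. After anti-MerTK Deptor (0.80 ± 0.21) was below Rictor (1.203 ± 0.17) and below Tsc1 (1.37 ± 0.15) in all 5 libraries, so it was the lowest of the 10 genes in that group only. The mean RPKM of Rheb was 52.3 times that of Deptor.

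**Figure D1:**
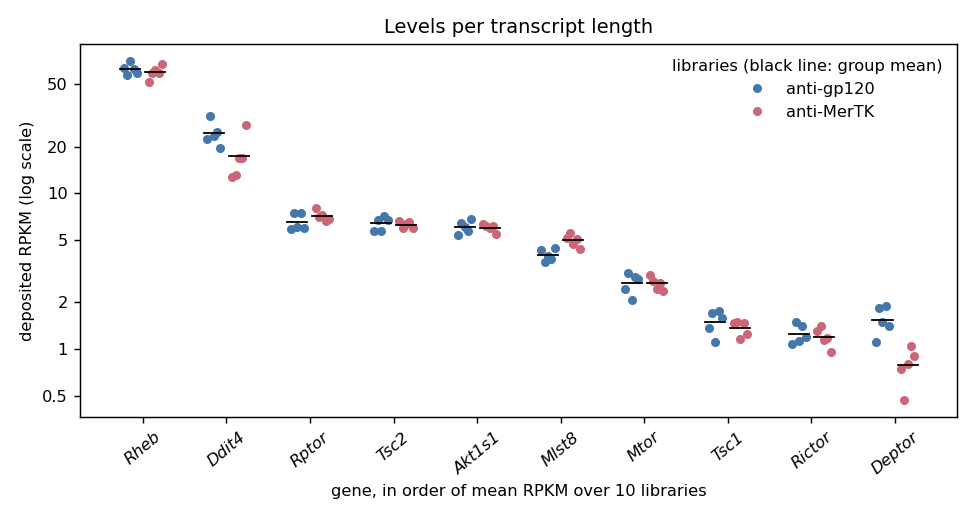
Deposited RPKM (log scale) of the 10 genes in each library, ordered by mean over 10 libraries; blue points are anti-gp120 libraries, red points anti-MerTK libraries and black lines group means (n = 5). Rheb and Ddit4 lie above all others, and the points of Tsc1, Rictor and Deptor overlap at the bottom. The anti-MerTK points of Deptor lie below its anti-gp120 points, with group means of 0.80 and 1.55 RPKM.

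The subunits specific to each complex were unequal at this level. The RPKM of Rptor was higher than that of Rictor in all 10 libraries, with a ratio of 5.24 ± 0.213 after anti-gp120 and 6.07 ± 0.840 after anti-MerTK (SD, n = 5). The RPKM of Tsc1 was below that of its partner Tsc2 in all 10 libraries, with ratios of 0.232 ± 0.0237 and 0.218 ± 0.0233.

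Deptor was lower after anti-MerTK, at 0.515 times its level after anti-gp120. The 5 anti-gp120 libraries gave 9.61, 16.1, 12.8, 16.4 and 12.2 CPM in the order of their replicate numbers. The 5 anti-MerTK libraries gave 6.49, 4.10, 6.94, 9.15 and 7.78 CPM. Replicates 2 and 4 were the highest anti-gp120 libraries and replicate 2 the lowest anti-MerTK library, and the groups did not overlap, although anti-gp120 replicate 1 and anti-MerTK replicate 4 were close. Means were 13.4 ± 2.84 and 6.89 ± 1.86 CPM (SD, n = 5), from 133 to 670 reads per library. The log2 fold change was -0.96 (SE 0.20), a fold of 0.515, with an edgeR adjusted p = 0.0295. This is the value for which Deptor was chosen. In RNA from many cells, fewer cells of a type and less RNA per cell cannot be told apart. By size of fold it was number 7 among the 187 genes that passed as lower. Deptor was the 1 gene of the 10 that passed, and the 1 of the 10 whose groups did not overlap. Of all tested genes 1.38% passed as lower, and for 2.71% the anti-MerTK range lay wholly below.

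The direction of the Deptor difference was the same with each library left out, and its passing was not. Leaving out anti-gp120 replicate 2, 3 or 4 gave an edgeR adjusted p of 0.0800, 0.0528 or 0.0812. Leaving out anti-MerTK replicate 1 or 3 gave 0.0820 or 0.0811. In 8 libraries, without anti-MerTK replicates 2 and 5, the log2 fold change was -0.83 and the edgeR adjusted p = 0.0554.

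**Figure D2:**
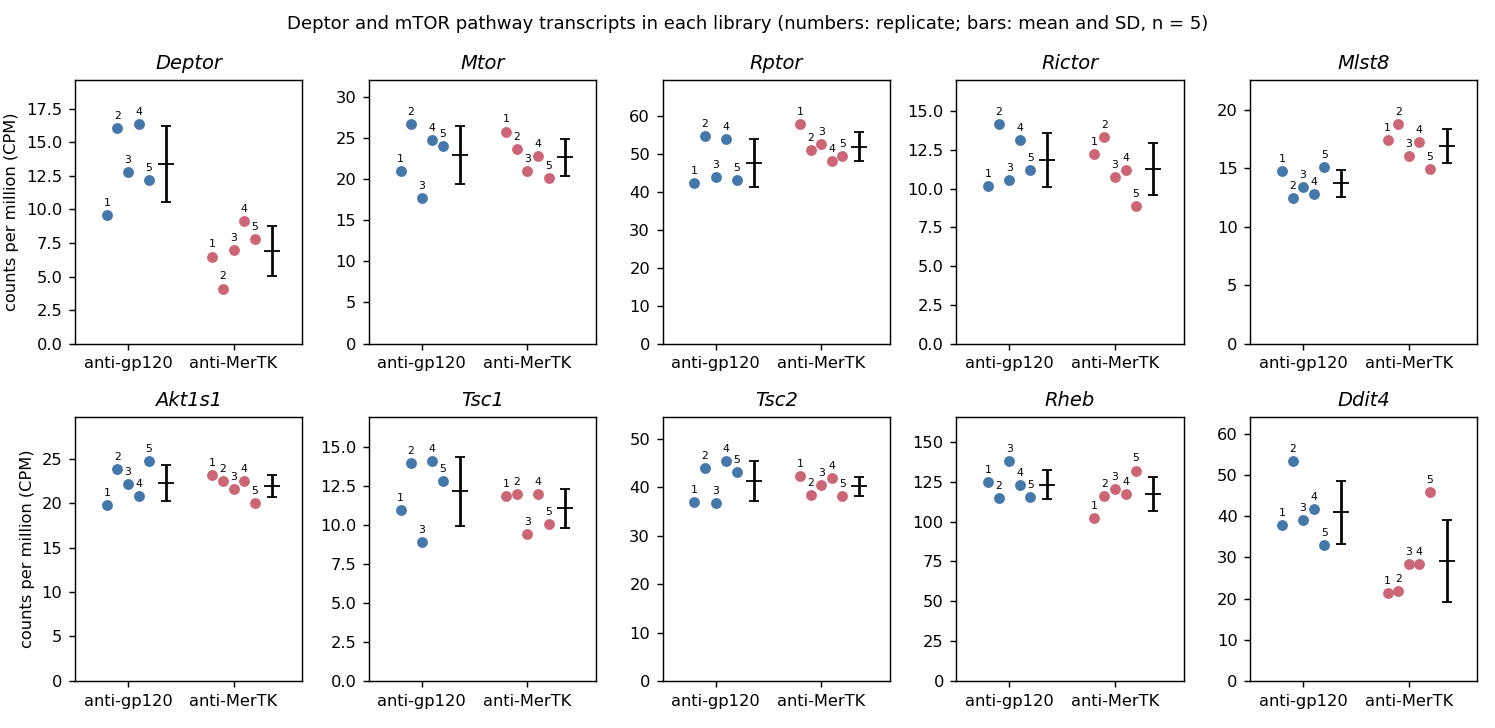
CPM of each of the 10 genes in every library, with each axis starting at 0, points numbered by replicate and bars giving mean and SD (n = 5). The Deptor groups do not overlap (9.61 to 16.4 against 4.10 to 9.15 CPM), while those of the other 9 genes do.

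The Deptor gene lies at chr15:55112317-55259273 (GRCm38), on the plus strand, and its reads were counted over its gene model. On the opposite strand the predicted gene Gm9920 shares 303 of the 8874 exon bases annotated for Deptor (3.41%). Its own level was 0.794 ± 0.192 CPM in the anti-gp120 group and 0.465 ± 0.192 CPM in the anti-MerTK group (SD, n = 5), with 5 to 36 reads per library. The sources used here do not say whether reads were counted by strand, so reads from the shared bases cannot be assigned to either gene.

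Relative to the kinase it binds, Deptor transcript was lower. Its RPKM divided by that of Mtor in the same library was 0.453, 0.596, 0.715, 0.656 and 0.504 after anti-gp120. After anti-MerTK the ratio was 0.250, 0.172, 0.329, 0.399 and 0.383. The 5 anti-MerTK ratios lay below the 5 anti-gp120 ratios, with means of 0.307 ± 0.0949 and 0.585 ± 0.107 (SD, n = 5). Mtor differed little (log2 fold change -0.02), so the ratio repeats the Deptor values for which the gene was chosen. For the other inhibitory subunit, Akt1s1, the ratio to Mtor was 2.33 ± 0.379 after anti-gp120 and 2.29 ± 0.12 after anti-MerTK, and the groups overlapped.

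Summed over 7 epithelial and tumour cell markers, levels were 36.0 to 59.9 CPM after anti-gp120 and 25.8 to 34.2 CPM after anti-MerTK, without overlap. That sum was almost wholly Cdh1, the E-cadherin gene, at 34.6 to 59.8 and 25.6 to 34.2 CPM. Cdh1 was the 1 marker of this list that could be tested, and it passed as lower after anti-MerTK, as Deptor did (log2 fold change -0.72, edgeR adjusted p = 0.0244). The defining markers Epcam, Krt18, Krt19 and Cldn7 had at most 0.19 CPM in any library, Krt8 at most 1.56 CPM, and Cldn4 had no reads. Summed over 9 monocyte markers, levels were 752 to 1067 CPM after anti-gp120 and 938 to 1188 CPM after anti-MerTK, and 1 of the 9, Plac8, passed as higher. Summed over 8 dendritic cell markers, levels were 26.9 to 65.8 and 51.0 to 94.0 CPM, highest in anti-MerTK replicate 2, and 0 of 5 tested passed. The fibroblast markers gave 8.36 to 31.8 and 6.39 to 42.8 CPM (0 of 7 tested passed). The muscle markers gave at most 2.06 CPM and the adipocyte markers at most 1.76 CPM in any library. The part of monocytes, dendritic cells and cells that express Cdh1 in the Deptor difference was not tested.

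Among the shared and complex-specific subunits, Mtor (chr4:148448582-148557685) differed between the groups by less than the spread of the libraries. It gave 21.0, 26.7, 17.7, 24.8 and 24.0 CPM after anti-gp120 and 25.8, 23.6, 20.9, 22.8 and 20.1 CPM after anti-MerTK. The anti-MerTK values lay inside the anti-gp120 range, and the log2 fold change was -0.02 (SE 0.11, edgeR adjusted p = 0.953). Rptor (chr11:119602905-119899591), which recruits substrates to complex 1, ranged from 42.4 to 54.8 CPM and from 48.1 to 57.9 CPM. Its log2 fold change was 0.12 (SE 0.09, edgeR adjusted p = 0.462). Rictor (chr15:6708349-6800401), which defines complex 2, ranged from 10.2 to 14.2 CPM and from 8.92 to 13.3 CPM, with a log2 fold change of -0.07 (SE 0.12, edgeR adjusted p = 0.776).

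Mlst8 (chr17:24473550-24479114), which binds the kinase domain in both complexes, had a small positive difference that did not pass. Anti-gp120 libraries gave 14.7, 12.5, 13.4, 12.8 and 15.1 CPM. Anti-MerTK libraries gave 17.5, 18.8, 16.1, 17.3 and 14.9 CPM. Except for replicate 5, which was inside it, the anti-MerTK values were above the whole anti-gp120 range. Means were 13.7 ± 1.17 and 16.9 ± 1.48 CPM (SD, n = 5), with a log2 fold change of 0.30 (SE 0.09, edgeR adjusted p = 0.0784). It passed with DESeq2 (adjusted p = 0.0242), with limma-voom (adjusted p = 0.0366) and in edgeR without anti-MerTK replicate 5 (adjusted p = 0.0428). DESeq2 passed 9.19% of all genes it gave an adjusted p, and limma-voom 7.62% of all tested genes. In the other 16 alternative fits Mlst8 did not pass, and with 1 library left out its edgeR adjusted p reached 0.193. On the opposite strand, Bricd5 shares 997 of 4435 exon bases annotated for Mlst8 (22.5%). Bricd5 was at 3.88 ± 0.546 and 4.73 ± 0.392 CPM (log2 fold change 0.29, edgeR adjusted p = 0.210), so part of the Mlst8 reads may belong to it and its separate value is uncertain.

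Akt1s1 (chr7:44849224-44855421), the gene of PRAS40, ranged from 19.8 to 24.7 CPM after anti-gp120 and from 20.01 to 23.2 CPM after anti-MerTK. Its log2 fold change was -0.02 (SE 0.08, edgeR adjusted p = 0.912). Of the 2 inhibitory subunits on the list, Deptor was lower and Akt1s1 gave means of 22.3 ± 2.06 and 22.0 ± 1.22 CPM. The difference between their changes was not tested.

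The genes of the switch upstream of complex 1 did not pass. Tsc1 (chr2:28640993-28691172) ranged from 8.88 to 14.1 CPM and from 9.42 to 12.0 CPM, with a log2 fold change of -0.14 (SE 0.13, edgeR adjusted p = 0.584). Tsc2 (chr17:24595816-24632676), the GTPase-activating partner, ranged from 36.8 to 45.5 and from 38.2 to 42.5 CPM, with a log2 fold change of -0.04 (SE 0.08, edgeR adjusted p = 0.822). Rheb (chr5:24802823-24842361) ranged from 114.9 to 138 and from 102 to 132 CPM, with a log2 fold change of -0.07 (SE 0.08, edgeR adjusted p = 0.649). For Tsc1, Tsc2 and Rheb the ranges of the groups overlapped. Tsc2 shares 693 exon bases (7.20%) with Pkd1 on the opposite strand, which was at 46.3 ± 10.7 and 39.5 ± 5.17 CPM.

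Ddit4 (chr10:59949675-59951770), the stress-induced inhibitor upstream of Tsc2, was lower on average after anti-MerTK but did not pass. Anti-gp120 libraries gave 37.8, 53.4, 39.2, 41.7 and 32.9 CPM. Anti-MerTK libraries gave 21.3, 21.9, 28.4, 28.4 and 45.9 CPM. The anti-MerTK values of replicates 1 to 4 lay below the whole anti-gp120 range, and replicate 5 lay above all anti-gp120 values except that of replicate 2. Means were 41.01 ± 7.64 and 29.2 ± 9.95 CPM (SD, n = 5), with a log2 fold change of -0.49 (SE 0.20, edgeR adjusted p = 0.200). Without anti-MerTK replicate 5 the log2 fold change was -0.71 and the gene passed (edgeR adjusted p = 0.0183), and with limma-voom, which gives libraries unequal weights, it passed at -0.61 (adjusted p = 0.0444). The fibroblast marker sum was also highest in anti-MerTK replicate 5, at 42.8 CPM, and its part in the Ddit4 value was not tested.

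Since Ddit4 is known as a hypoxia-induced gene, the 250 bases before 1 transcript start per gene were searched for ACGTG, the core bound by hypoxia-inducible factors, on both strands (CACGT on the other). RefSeq's table for GRCm38.p6 held such windows for 9 of the 10 genes, all but Deptor. For Akt1s1, Tsc1, Tsc2, Mlst8 and Rictor the start used lies inside the gene's outermost coordinates given above, so that 250, 240, 49, 36 and 32 bases of the window fall within the gene, and other starts of these genes were not searched. For Mtor, Rptor, Rheb and Ddit4 the window ends just before the first base of those coordinates on the strand of the gene. The core was found in 3 of the 9, and in 16.6% of 32851 windows of the same length in the table. The 3 windows are shown 5′ to 3′ on the strand of the gene, with the core in capitals. In Rheb, 2 overlapping matches form CACGTG, an E-box, which 6.02% of the windows hold.
Ddit4, chr10:59951771-59952020, minus strand: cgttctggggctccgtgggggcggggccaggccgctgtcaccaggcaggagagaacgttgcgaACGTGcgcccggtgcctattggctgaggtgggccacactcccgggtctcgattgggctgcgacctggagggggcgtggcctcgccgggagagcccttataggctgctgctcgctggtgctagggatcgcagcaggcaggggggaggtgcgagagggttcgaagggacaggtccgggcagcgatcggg
Rheb, chr5:24842362-24842611, minus strand: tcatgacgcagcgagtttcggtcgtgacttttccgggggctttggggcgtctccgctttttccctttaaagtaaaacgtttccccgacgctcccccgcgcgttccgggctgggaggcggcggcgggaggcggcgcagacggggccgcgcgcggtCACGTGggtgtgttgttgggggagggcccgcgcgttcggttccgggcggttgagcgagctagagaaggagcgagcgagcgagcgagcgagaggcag
Rptor, chr11:119602655-119602904, plus strand: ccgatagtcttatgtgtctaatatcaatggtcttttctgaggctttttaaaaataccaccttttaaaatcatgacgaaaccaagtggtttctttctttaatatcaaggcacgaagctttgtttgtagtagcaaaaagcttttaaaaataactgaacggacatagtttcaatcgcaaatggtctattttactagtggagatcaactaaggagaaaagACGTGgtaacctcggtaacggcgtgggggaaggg
The first base of the match lies 187 bases before the start of Ddit4, 96 before that of Rheb and 34 before that of Rptor. These are matches of letters, and no binding was measured here. Among 11 hypoxia-induced genes, 0 passed in either direction, beside 3.22% of all tested genes. In edgeR 1 of the 11 had an unadjusted p under 0.05, beside 20.9% of all tested genes. Their median log2 fold change was 0.13, against -0.0059 over all tested genes. Vegfa, the angiogenic growth factor, was at 457 ± 84.8 and 381 ± 71.6 CPM (log2 fold change -0.26, edgeR adjusted p = 0.327). Ankrd37, a target of hypoxia-inducible factors, was at 3.39 ± 1.002 and 5.40 ± 2.05 CPM (log2 fold change 0.67, edgeR adjusted p = 0.183).

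Ddit4 is also known to be induced by glucocorticoids. Of 9 genes on that list, 1 was higher and 0 were lower after anti-MerTK, beside 1.85% and 1.38% of all tested genes. The median log2 fold change of the 9 was -0.11. The higher gene was Dusp1, a phosphatase of MAP kinases, at 935 ± 61.8 and 1310 ± 241 CPM (a log2 fold change of 0.49 with SE 0.12, edgeR adjusted p = 0.0435). Dusp1 is also an immediate early gene. It passed without anti-MerTK replicate 5 and with no other library left out. Its edgeR adjusted p without anti-gp120 replicates 1 to 5 was 0.0637, 0.105, 0.0572, 0.101 and 0.0619. Without anti-MerTK replicates 1 to 4 it was 0.0979, 0.0771, 0.0946 and 0.0687. Cebpd, a transcription factor, was at 19.8 ± 2.54 and 27.9 ± 6.17 CPM (log2 fold change 0.49, edgeR adjusted p = 0.0821).

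The 10 genes also varied among the libraries of a group, which the choice of the list did not use. With group means subtracted, log2 CPM values (prior count 2) of Mtor, Tsc1, Tsc2, Rictor and Rptor varied together over the 10 libraries. Within single groups of 5 libraries, some of these pairs were weaker after anti-MerTK than after anti-gp120, and others were not. Mtor and Rictor had r = 0.81 after anti-gp120 and 0.82 after anti-MerTK, and Mtor and Tsc1 0.98 and 0.81. Tsc1 and Tsc2 had 0.92 and 0.33, and Rptor and Tsc1 0.70 and 0.09. Correlations are across 10 libraries that share depth, handling and scaling, and are given as a description. Mtor and Tsc1 had r = 0.94 (Spearman 0.83), and r = 0.86 without the 2 libraries farthest from the median of Mtor. Mtor and Tsc2 had r = 0.82 (Spearman 0.88, 0.69 without the 2 farthest), and Mtor and Rictor had r = 0.78 (Spearman 0.78, 0.78 without the 2 farthest). Rheb ran opposite to this block, with r = -0.88 to Mtor (Spearman -0.90, -0.78 without the 2 farthest). Its r to Tsc1 was -0.72 (Spearman -0.65, and -0.59 without the 2 libraries farthest from the median of Tsc1). Of the 45 pairs among the 10 genes, 6 had r of at least 0.7 (13.3%) and 4 had r of at most -0.7 (8.89%). Over all pairs of tested genes these shares were 3.78% and 3.55%.

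**Figure D3:**
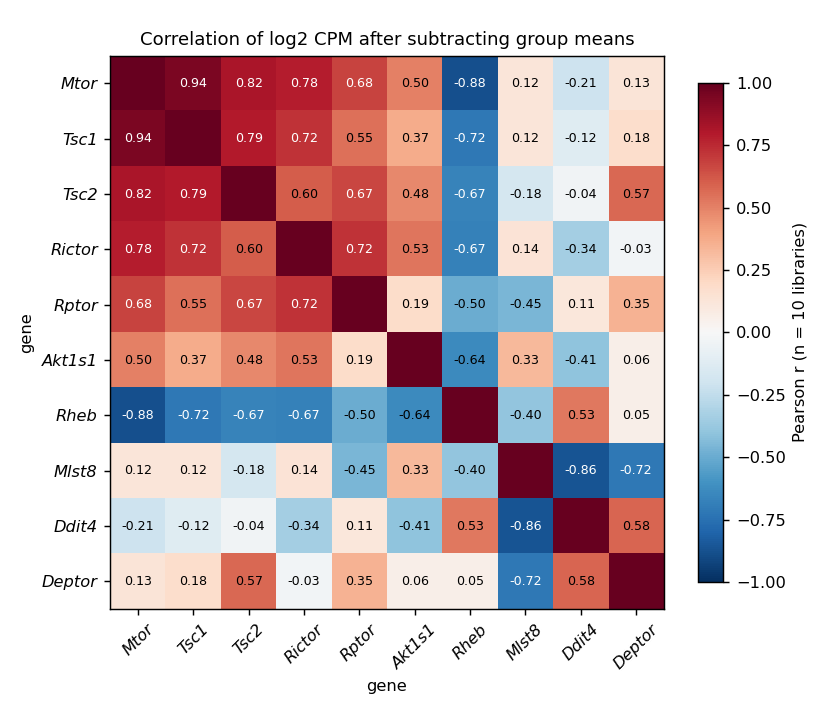
Pearson r between each pair of the 10 genes over 10 libraries, from log2 CPM after subtracting group means; red is positive and blue negative. Mtor, Tsc1, Tsc2, Rictor and Rptor form a positive block (0.55 to 0.94 over both groups together). Some of its pairs are weaker in the anti-MerTK group alone. Rheb is negative to the block, and Mlst8 is negative to Ddit4 and Deptor.

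The genes of the positive block have long transcripts, and the block followed the length of transcripts in each library. The longest annotated transcripts have 8564 bases for Mtor, 7702 for Tsc1, 6266 for Tsc2, 9312 for Rictor and 6594 for Rptor, against 4046 for Rheb. A library measure was taken as the median log2 CPM of 1639 genes with transcripts of at least 6000 bases minus that of 2485 genes with at most 2000 bases. It ranged from 0 to 0.595 after anti-gp120 and from -0.12 to 0.212 after anti-MerTK. Within groups it had r = 0.86 with Tsc1, 0.84 with Tsc2, 0.82 with Mtor, 0.73 with Rictor and 0.70 with Rptor, and -0.57 with Rheb (n = 10). Its part in the correlations among these genes was not tested. Deptor, with 8547 bases, is as long as Mtor and had r = 0.46 with this measure within groups. The part of the measure in the Deptor difference between the groups was not tested.

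Deptor, Ddit4 and Mlst8 varied along another line. Within groups Mlst8 had r = -0.86 with Ddit4 (Spearman -0.89, -0.78 without the 2 libraries farthest from the median of Mlst8) and -0.72 with Deptor (Spearman -0.73). The latter was -0.48 without the 2 libraries farthest from the median of Deptor. Deptor and Ddit4 had r = 0.58 (Spearman 0.75, 0.55 without the 2 farthest). These 3 genes followed the first principal component of all tested genes, with r within groups of -0.82 for Deptor, -0.85 for Ddit4 and 0.91 for Mlst8 (n = 10). For Mtor the same r was 0.05. The component separates most anti-gp120 from most anti-MerTK libraries, with anti-gp120 replicate 5 at 1.51 and anti-MerTK replicate 5 at -12.9 on the side of the other group. Ddit4 in anti-MerTK replicate 5 was at 45.9 CPM, as in the anti-gp120 libraries, while Deptor there was at 7.78 CPM, within the anti-MerTK range.

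**Figure D4:**
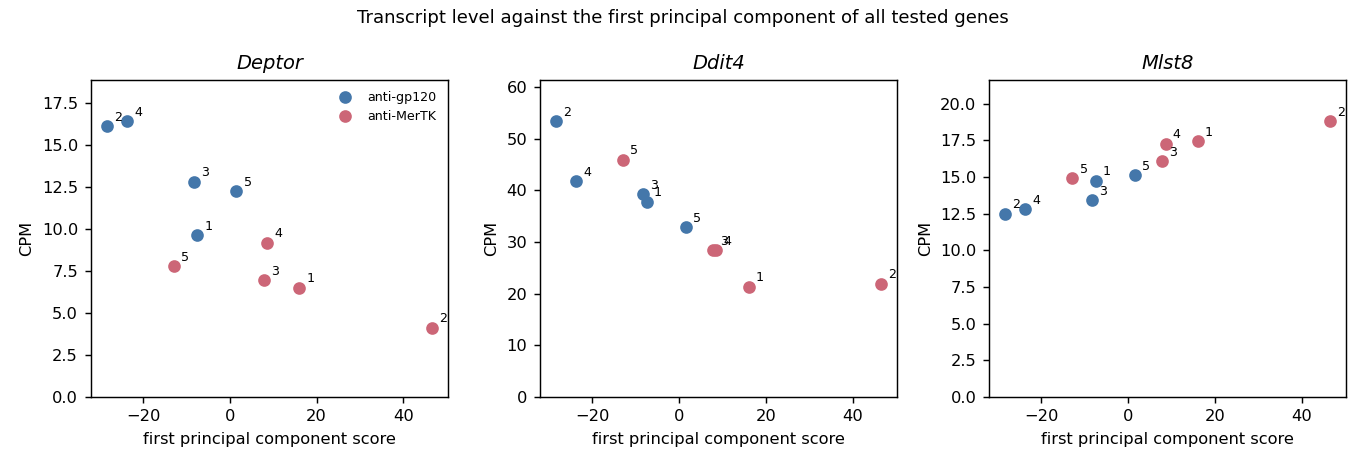
CPM of Deptor, Ddit4 and Mlst8 (axes from 0) against each library's score on the first principal component, with points numbered by replicate, blue for anti-gp120 and red for anti-MerTK. Toward positive scores Deptor and Ddit4 are lower and Mlst8 is higher, and anti-MerTK replicate 2 lies farthest out at 46.6.

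The transcripts most like Deptor were found among 10041 tested genes, leaving out predicted genes and pseudogenes and those whose mean log2 CPM was under 1. Over all 10 libraries, group difference included, the highest Pearson r was with Ccpg1 (0.986), an endoplasmic reticulum protein of selective autophagy. Next came Fbxl20 (0.984), an F-box protein, Slc9a7 (0.981), a sodium-proton exchanger, Nnt (0.98), a mitochondrial transhydrogenase, and Zdhhc9 (0.977), a palmitoyltransferase. The level of Ccpg1 was 57.3 ± 5.6 CPM in the anti-gp120 group and 42.2 ± 5.09 CPM in the anti-MerTK group, and that of Slc9a7 25.4 ± 6.41 and 12.8 ± 4.40 CPM (SD, n = 5). An r of at least 0.9 with Deptor was reached by 212 of the 10041 genes (2.11%). With group means subtracted, the 5 highest were Arl5b (0.975), a small GTPase, Zfyve9 (0.971), an endosomal adaptor of TGF-beta receptors, Slc16a6 (0.966), of the monocarboxylate transporter family, Mtus1 (0.964), a microtubule-associated protein, and again Slc9a7 (0.960), and 82 genes (0.817%) reached 0.9. None of the other 9 mTOR genes was among them, the highest r within groups being 0.58 for Ddit4.

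In the wider pathway, 1 of 96 tested genes was lower and 0 were higher after anti-MerTK, beside 1.38% and 1.85% of all tested genes. The same shares stand beside the counts of genes that passed in the single lists below. The 96 genes came from 7 lists by role that held 100 symbols. The median log2 fold change was -0.04, with 54 negative and 42 positive values, beside 6934 negative and 6654 positive over all tested genes. An unadjusted p under 0.05 was reached by 27 of the 96, 19 lower and 8 higher, beside 20.9% of all tested genes. The 1 gene that passed was Pdpk1, the kinase that phosphorylates Akt and S6 kinase. It gave 46.3 to 52.4 CPM after anti-gp120 and 38.2 to 41.6 CPM after anti-MerTK, without overlap. Means were 49.3 ± 2.25 and 39.96 ± 1.67 CPM (SD, n = 5), with a log2 fold change of -0.30 (SE 0.06, edgeR adjusted p = 0.0210). For 2.71% of all tested genes the anti-MerTK range lay wholly below that of anti-gp120. Pdpk1 did not pass without anti-gp120 replicate 4 (edgeR adjusted p = 0.0719), anti-MerTK replicate 2 (0.0576) or anti-MerTK replicate 3 (0.0657), nor in 8 libraries (0.0872). With DESeq2 7 genes of the wider pathway passed, beside 9.19% of all genes it gave an adjusted p, and with limma-voom 8, beside 7.62% of all tested genes. With the filter of 5 CPM 2 passed (4.68% of all tested), and with 1 surrogate variable 3 (4.73%). In 8 libraries 0 passed (1.47%).

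Growth factor inputs, with Pdpk1, had 1 of 18 tested genes lower and 0 higher. Of the 18 estimates 14 were negative, beside 6934 of 13588 for all tested genes.

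Among energy inputs, the AMP-activated kinase and its partners, 0 of 9 tested genes passed. Prkag2, a regulatory subunit of that kinase, was at 12.5 ± 1.55 and 10.004 ± 0.880 CPM (log2 fold change -0.33, edgeR adjusted p = 0.102). It passed without anti-gp120 replicate 5 (edgeR adjusted p = 0.0422). Cab39, a scaffold of the LKB1 kinase, had a log2 fold change of -0.18 (edgeR adjusted p = 0.129). Among 30 tested genes of amino acid sensing at the lysosome, 0 passed, and their median log2 fold change was 0.0048. Sec13, which serves the GATOR2 complex, the nuclear pore and vesicle coats, was at 108 ± 8.85 and 128 ± 4.61 CPM without overlap (a log2 fold change of 0.25 with SE 0.07, edgeR adjusted p = 0.0627). It passed with DESeq2, limma-voom and the filter of 5 CPM (adjusted p = 0.0124, 0.0179 and 0.0439). An anti-MerTK range wholly above was seen for 3.26% of all tested genes. Mios, another GATOR2 subunit, was at 9.07 ± 0.843 and 7.18 ± 0.939 CPM (log2 fold change -0.34, edgeR adjusted p = 0.113).

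Among 24 effectors of mTOR, 0 passed. Of their estimates 17 were negative, beside 6934 of 13588 for all tested genes. Eif4b, a translation initiation factor phosphorylated by S6 kinase, was at 209.7 ± 20.9 and 169 ± 11.7 CPM without overlap (a log2 fold change of -0.31 with SE 0.08, edgeR adjusted p = 0.0603). It passed under DESeq2, under limma-voom and with 1 surrogate variable (adjusted p = 0.00986, 0.0347 and 0.0475), and in edgeR without anti-gp120 replicate 1 (adjusted p = 0.0324). An anti-MerTK range wholly below was seen for 2.71% of all tested genes. Lpin1, a phosphatidate phosphatase through which complex 1 acts on lipid genes, was at 6.58 ± 1.66 and 3.52 ± 1.38 CPM. Its log2 fold change of -0.90 (SE 0.28) was close in size to that of Deptor but did not pass (edgeR adjusted p = 0.0987). Lpin1 passed under DESeq2, under limma-voom and with 1 surrogate variable (adjusted p = 0.0169, 0.0281 and 0.0494).

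Deptor protein is known to be removed by the ubiquitin ligase SCF with the adaptor beta-TrCP after phosphorylation by casein kinase 1. Of 7 genes of that turnover machinery, 0 passed. Btrc, the gene of beta-TrCP, was at 10.6 ± 0.282 and 11.9 ± 0.710 CPM (log2 fold change 0.17, edgeR adjusted p = 0.213). Cul1, the scaffold of the ligase, was at 72.8 ± 2.02 and 67.0 ± 3.77 CPM (log2 fold change -0.12, edgeR adjusted p = 0.252). For Btrc the anti-MerTK range lay wholly above the anti-gp120 range, and for Cul1 wholly below it. Such ranges were seen for 3.26% and 2.71% of all tested genes. Btrc and Cul1 were named for having the smallest p of the 7.

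Of 6 genes for other subunits and assembly factors, 0 passed. All 6 estimates were positive, between 0.08 and 0.25, beside 6654 of 13588 positive for all tested genes. Telo2, which helps to assemble PI3-kinase-like kinases, had a log2 fold change of 0.22 (edgeR adjusted p = 0.198), and Mapkap1, the Sin1 subunit of complex 2, of 0.08 (edgeR adjusted p = 0.389). The relatives of the switch, Tbc1d7, the third subunit of the Tsc complex, and Rhebl1, a Rheb-like GTPase, had log2 fold changes of 0.25 and 0.30 (edgeR adjusted p = 0.112 and 0.235). Tbc1d7 passed with limma-voom (adjusted p = 0.0444).

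**Figure D5:**
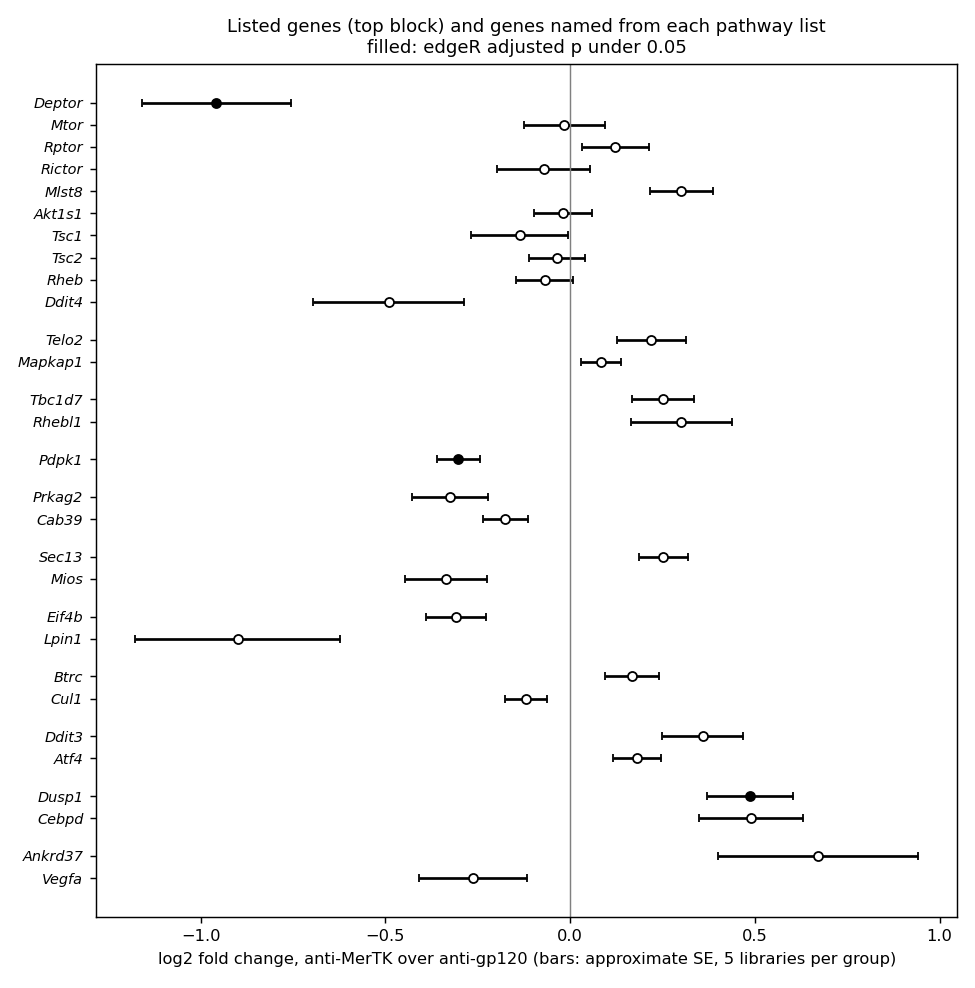
Log2 fold changes (anti-MerTK over anti-gp120) with approximate SE for the 10 genes in the top block and, below, the genes named from each further list; filled points had an edgeR adjusted p under 0.05. Deptor at -0.96, Pdpk1 at -0.30 and Dusp1 at 0.49 are filled, and all other points are open.

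Complex 1 is known to raise the transcription factor Atf4 and its amino acid and folate genes. Of 14 genes on that list 0 passed, and the median log2 fold change was 0.09. In edgeR 3 of the 14 had an unadjusted p under 0.05, all higher, beside 20.9% of all tested genes in either direction. Atf4 itself was at 202 ± 8.18 and 229 ± 15.7 CPM (a log2 fold change of 0.18 with SE 0.07, edgeR adjusted p = 0.143). Its groups did not overlap by a narrow margin (209.05 against 209.5 CPM). For 3.26% of all tested genes the anti-MerTK range lay wholly above. Ddit3, a stress-induced transcription factor, was at 13.9 ± 2.16 and 17.8 ± 1.69 CPM (log2 fold change 0.36, edgeR adjusted p = 0.0935).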

How the data were processed

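Polyadenylated RNA of 10 libraries was sequenced, and the authors aligned reads with GSNAP to GRCm38, per the submitters' processing notes. For aligner version, annotation release, counting tool, strand setting and the making of the size factor: not given in the sources used here. Per the file headers, the authors' counts hold reads that align to 1 place only, summed by gene model, so near-identical copies can lose reads. The deposited RPKM values carry a size factor per library set by the authors, per the file headers, and were used for levels between genes and for recovered library factors.

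RefSeq's table for assembly GRCm38.p6 gave names and coordinates for 31049 of 36528 identifiers, and unnamed ones held 2.14% to 2.66% of counts, and 234 of 236 list symbols were found. The 10 genes and all lists were chosen with earlier results of these data known. Genes kept by filterByExpr (13588) were tested with edgeR 4.0.16 (quasi-likelihood, TMM, robust, treatment as the only term, R 4.3.3) and Benjamini-Hochberg adjustment over all of them, two-sided, at 0.05. The SE is the log2 fold change over the square root of F and is approximate. Leaving out a library and other fits (DESeq2 1.42.0, limma-voom 3.58.1, sva 3.50.0) were alternatives, and the fit in 8 libraries was added after seeing the data. The test was checked on simulated counts. Besides the 10 genes, the text names the 2 genes of smallest p and any that passed in each list, and the 5 most correlated with Deptor; 1 gene so chosen is not reported here. Transcript lengths and shared exon bases are from GENCODE's GRCm38 annotation. Marker genes and genes sharing exons with the 10 are named for their position or list.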

Additional observations from a re-analysis of the deposited data

Results flagged for a closer look

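In 5 cases 1 value lay far from the other 4 libraries of its group, by a gap that took up more of the group's range than Dixon's limit of 0.71 allows. Ddit4 in anti-MerTK replicate 5 was high, at 45.9 CPM. Eif4b and Prkag2 in anti-MerTK replicate 2 were low, at 149 and 8.46 CPM. Atf4 in anti-gp120 replicate 1 was low, at 188 CPM, and Btrc in anti-gp120 replicate 5 was low, at 10.1 CPM. Chance flags about 1 in 20 groups, and 66 groups of 5 were looked at.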

How the results depend on the processing

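Deptor kept its direction in every fit run. Its log2 fold change ranged from -1.08 to -0.82 with each library left out, and it was -0.83 in 8 libraries, where it did not pass. Of the 10 listed genes, 1 passed, against 2 with DESeq2, 3 with limma-voom and 0 in 8 libraries, and 0 to 3 with each library left out. The shares of all tested genes also differed: 3.22% passed in the main fit, 9.19% with DESeq2, 7.62% with limma-voom and 1.47% in 8 libraries. With the filter of 5 CPM 4.68% passed, and with 1 surrogate variable 4.73%. Of the wider pathway 1 gene passed, against 2 with the filter of 5 CPM in 5 libraries, 7 with DESeq2, 8 with limma-voom, 3 with 1 surrogate variable and 0 in 8 libraries, and 0 to 3 with each library left out. Leaving out a library also leaves fewer samples. Differences near 0 changed sign: Akt1s1 to 0.0044 with limma-voom, and Akt1s1, Mtor and Tsc2 to 0.012, 0.018 and 0.011 in 8 libraries. With each library left out Akt1s1 ranged from -0.060 to 0.022, Mtor from -0.089 to 0.042, Tsc2 from -0.074 to 0.0036 and Rictor from -0.14 to 0.00084. The cause of these differences between fits was not tested. The median correlation within groups over the 45 pairs was 0.13, and 0.10 with the authors' library factors. No paired analysis was possible because the labels give no replicate numbers: the numbers used here follow the order of the samples, only name the libraries and pair none of them.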
